A study of Mus musculus with 9 samples.

Results

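The colony-stimulating factors are the cytokines that make, feed and call up myeloid cells, and 9 mouse genes encode the ligands and receptor chains described here: Csf1, Il34, Csf2 and Csf3 (ligands) and Csf1r, Csf2ra, Csf2rb, Csf2rb2 and Csf3r (receptors). They were chosen by symbol, as 9 of the 32285 mouse genes counted in every library, with earlier results of these data known. Single-cell RNA-seq libraries came from 5 EPZFTA-RELA tumors (genotype NestinCreERT2;Fus1) and 4 control brains (genotype NestinCreERT2;TdT) of mice aged 6 to 8 weeks. The fusion-bearing mice carry a conditional ZFTA-RELA allele that the tamoxifen-inducible Cre under the Nestin promoter opens in embryonic radial glia. Both groups therefore carry the Cre driver, and no treatment is listed for either. The tissue was dissociated, passed through Percoll and sorted on DAPI and Ter119, a red-cell antigen, before droplets were made with a 10x Genomics 5' kit. Each sample is taken as 1 mouse.

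M-CSF, the product of Csf1, and the Il34 protein are structurally different ligands that bind the same receptor tyrosine kinase, encoded by Csf1r, on which microglia depend throughout life. GM-CSF, the product of Csf2, binds a specific alpha chain (Csf2ra) that pairs with a shared beta chain (Csf2rb), which also serves interleukin-3 and interleukin-5; mice have a second beta chain gene, Csf2rb2, whose product serves interleukin-3. G-CSF, the product of Csf3, binds Csf3r, the receptor known for driving the formation of neutrophils. Csf2 is a known product of activated lymphocytes, and Csf3 of activated stroma, endothelium and macrophages.

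On mouse build GRCm38, Csf1 lies on chromosome 3 (107741048 to 107760469), Il34 on 8 (110741829 to 110805924), Csf2 and Csf3 on 11 (54247271 to 54249667 and 98701263 to 98703629), Csf2ra on 19 (61223957 to 61228429), Csf3r on 4 (126024550 to 126044440) and Csf1r on 18. The 2 beta chain genes are neighbors on chromosome 15, Csf2rb at 78325752 to 78353847 on the plus strand and Csf2rb2 at 78282507 to 78305721 on the minus strand. Their coding sequences (2691 and 2637 bases) were identical at 95.2% of 2631 aligned bases, and 12.4% and 12.6% of all 91-base stretches of one occurred exactly in the other. Reads from such stretches cannot be assigned to one gene, so the counts of Csf2rb and Csf2rb2 are uncertain. The first 150 coding bases, near the end of the transcript that a 5' kit reads, are shown with the 6 bases at which the genes differ in capitals.
Csf2rb: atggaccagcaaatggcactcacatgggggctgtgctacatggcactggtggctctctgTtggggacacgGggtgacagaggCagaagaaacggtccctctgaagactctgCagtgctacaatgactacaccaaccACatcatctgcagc
Csf2rb2: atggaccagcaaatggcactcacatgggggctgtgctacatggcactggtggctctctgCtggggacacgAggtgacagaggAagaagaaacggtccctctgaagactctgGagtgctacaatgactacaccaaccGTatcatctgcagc

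Control libraries held 101060608 to 178086164 UMIs, the tags that let every captured transcript be counted once, over 75222 to 86516 barcodes, and tumor libraries 14967680 to 69411387 over 9001 to 26341. After limits on genes and mitochondrial share, 35078 control and 41805 tumor cells were kept. Cells were assigned to a class when they carried at least 4 of its marker genes, none of which is a member, and are called phagocyte-like, neuron-like and so on. The neuron and progenitor classes were read last and without a limit against free RNA, so a neuron-like barcode may hold mainly free neuronal RNA. Of the kept tumor cells, 20174 fell into no class. Cells gated as "neural progenitor or tumor cell" (6514 in tumors, 0 in controls) carried a UMI of the fusion or luciferase sequence in 65.4% of cases, against 7.82% of tumor phagocyte-like cells. Of the 6514 cells, 4034 were in tumor 4, but only 40 in tumor 1 and 127 in tumor 3. Such a UMI was seen in 2.31%, 16.4%, 2.05%, 57.0% and 17.6% of all kept cells of tumors 1 to 5, so the tumors differed widely. Phagocyte-like cells made up 2.94% to 3.34% of kept control cells and 9.61% to 20.5% of kept tumor cells.

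The control barcodes were rich in neuronal RNA whatever their class, and this stands beside every comparison within a class. In control phagocyte-like cells the 10 neuron markers together took 4291 to 5147 CPM (UMIs per 1000000 UMIs of the same cells or barcodes), about as much as in the 3000 smallest barcodes of the same libraries (4834 to 5208 CPM). These smallest barcodes stand here for free RNA, but no measurement separates free RNA from small cells. In tumor 3, with 9001 barcodes in all, 2557 of its 3000 smallest were also among the kept cells, 164 of them phagocyte-like; in the other 8 libraries none were. In tumor phagocyte-like cells they took 70.6 to 1773 CPM. The 10 phagocyte markers took 9403 to 10460 CPM in control and 28520 to 46010 CPM in tumor phagocyte-like cells, whereas the 10 microglia markers took 6459 to 6835 and 5549 to 14990 CPM. The part of these differences in the results below was not tested beyond the ratios given with them.

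Over all deposited barcodes, Csf1 and all receptors other than Csf2ra were higher in every tumor than in every control, and Il34 was lower. Csf1r reached 34.8, 36.3, 32.7 and 34.8 CPM in the controls and 100, 151, 442, 116 and 63.2 CPM in tumors 1 to 5. Csf1 stood at 10.2 to 11.7 CPM in controls and 21.1 to 67.1 CPM in tumors. Tumor 3 was far above the rest for Csf1r, and without it the difference of the means fell from 140 to 73.0 CPM. Csf2rb stood at 0.536 to 0.722 CPM in controls and 3.72 to 16.65 CPM in tumors, and Csf2rb2 at 0.337 to 0.409 and 1.20 to 3.97 CPM. Csf3r stood at 1.48 to 1.74 CPM in controls and 5.42 to 29.3 CPM in tumors. Il34 alone was below the controls, at 13.4 to 15.2 CPM in controls and 2.44 to 11.9 CPM in tumors. Of 27974 genes, 37.6% had no overlap between the groups, so separation alone was common. Exact permutation of the group labels (two-sided) gave p = 0.0159 for Csf1, Il34, Csf2rb2 and Csf3r and p = 0.0238 for Csf1r and Csf2rb. After Benjamini-Hochberg adjustment over all genes, these became 0.0552 and 0.0683 in the exact permutation test, and no gene passed 0.05, although 11651 of the 27974 genes had an unadjusted p under 0.05 in that test. In such sums, more cells of a type and more RNA per cell cannot be told apart.

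**Figure D1:**
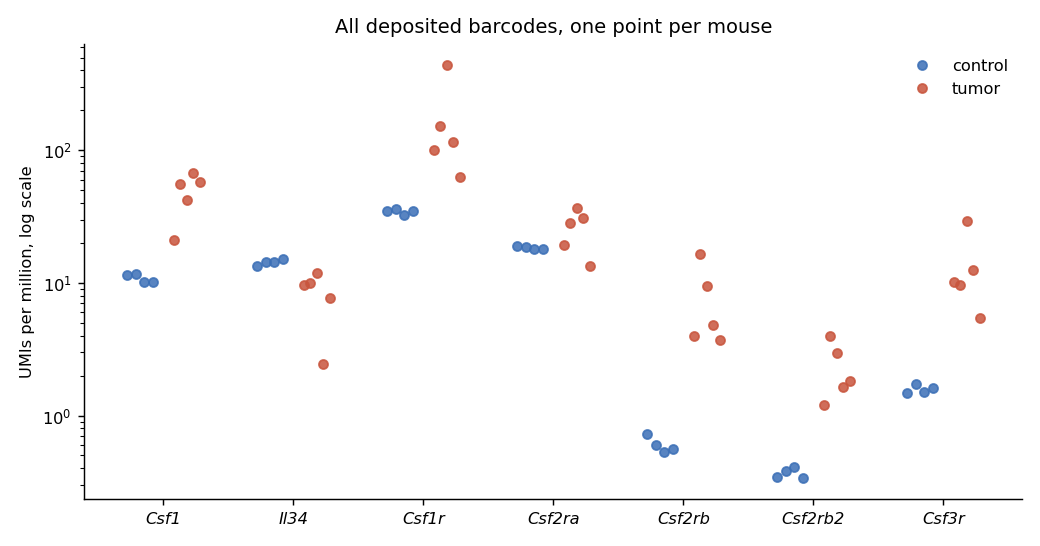
CPM (UMIs per 1000000) over all deposited barcodes (vertical axis, log scale) for 7 members, 1 point per mouse, controls in blue and tumors in red. Points of the groups overlap for Csf2ra only; Il34 is the member that is lower in tumors, at 2.44 to 11.9 CPM.

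Csf2ra depended on which barcodes were counted. Over all barcodes it stood at 19, 18.6, 17.9 and 18.1 CPM in controls and at 19.5, 28.2, 36.4, 31.0 and 13.4 CPM in tumors, and the groups overlapped (exact permutation p = 0.135). Over kept cells the difference of the means was -15.8 CPM, tumors lower (exact permutation p = 0.0159, 0.0469 after adjustment over all genes). Kept control cells were mostly neuron-like, and control neuron-like cells held Csf2ra at 46.3 to 48.4 CPM. Gated over every deposited barcode, a choice made after seeing the data, 226573 control barcodes were neuron-like and together held 20.1 CPM. The level within a class thus also depended on the barcodes counted. Why the direction changed was not tested.

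Summed over kept cells and tested with edgeR, 5 of the 7 members with enough counts were called higher in tumors (adjusted p under 0.05) and 0 lower. Of all 18298 genes tested, 56.5% were called and 29.3% were called higher. The log2 fold changes (edgeR, ± SE) were 3.27 ± 0.51 for Csf2rb, 2.84 ± 0.43 for Csf3r, 2.48 ± 0.32 for Csf1, 2.29 ± 0.49 for Csf1r and 1.94 ± 0.42 for Csf2rb2. Il34 (-0.67 ± 0.38, adjusted p = 0.147) and Csf2ra (-0.37 ± 0.25, adjusted p = 0.222) did not pass the edgeR test. Il34 passed in limma voom (-1.08, adjusted p = 0.0369). The median of the 7 members was 2.29, beside 0.0125 over all genes. Csf2 and Csf3 had too few counts to be tested. With libraries scaled by total UMIs in place of TMM, the scaling edgeR uses, the all-gene median moved to -0.22 and Csf2ra was called lower (-0.62, adjusted p = 0.042 in edgeR).

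The class that held each gene's UMIs differed between ligands and receptors. In tumors, phagocyte-like cells, 14.1% of the kept cells, held 83.1% of Csf1r (73.0% to 93.0% per mouse), 81.1% of Csf2rb, 83.6% of Csf2rb2 and 80.4% of Csf3r UMIs, beside 13.6% of all UMIs. Their share of Csf2ra was 61.8% but ranged from 27.3% to 73.3% per mouse, and in 2 tumors another group held more: neuron-like cells in tumor 1 (34.0%) and cells of no class in tumor 3 (196 of 511 UMIs, against 157 in phagocyte-like cells). They held 15.4% of the Csf1 UMIs and 4.56% of those of Il34. Most Csf1 and Il34 UMIs thus lay outside phagocyte-like cells, but for Csf1 the phagocyte-like share was near their 13.6% of all UMIs. Tumor Csf1 UMIs lay in neural progenitor or tumor cells (38.0%, 3.36% to 50.1% per mouse) and in cells of no class (32.7%), which held 33.1% and 31.6% of all tumor UMIs. These sums were dominated by tumor 4, which held 3650 of the 7435 Csf1 UMIs. In tumor 1 neuron-like (16.8%) and oligodendrocyte-like cells (14.7%) held more Csf1 than progenitors (3.36%), and in tumor 3 phagocyte-like cells held the largest share (37.0%). Tumor Il34 UMIs lay in mural-like cells (33.6%, 11.5% to 58.5% per mouse), which made up 0.792% of cells and held 0.941% of all UMIs, and in cells of no class (21.9%, up to 31.4% in a mouse). In tumor 1 neuron-like cells held 39 of the 78 Il34 UMIs and mural-like cells 9, and in tumor 5 cells of no class held 53 of 169 and mural-like cells 30. In controls the neuron-like cells, 88.5% of the kept cells, held 83.0% of Csf1, 91.3% of Il34, 93.9% of Csf2ra and 36.4% of Csf1r UMIs, beside 89.2% of all UMIs.

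**Figure D2:**
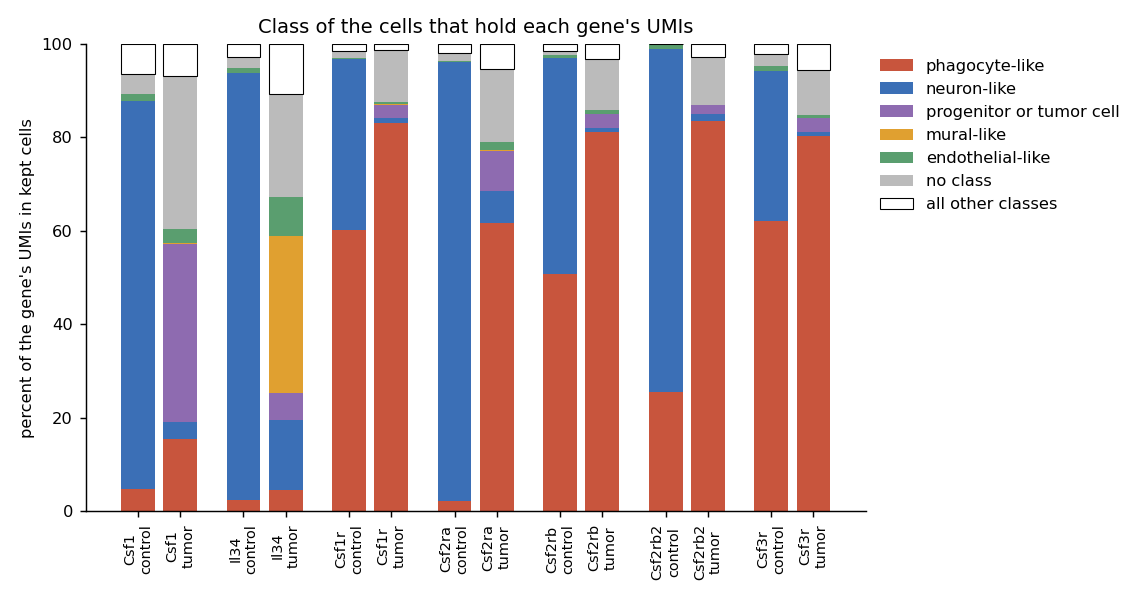
Percent of each gene's UMIs in kept cells (vertical axis) by the class of the cell, 1 bar for the summed controls and 1 for the summed tumors. Phagocyte-like cells (red) hold 83.1% of tumor Csf1r and 15.4% of tumor Csf1 UMIs, and mural-like cells (yellow) hold 33.6% of tumor Il34 UMIs.

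Csf1r marked the phagocyte-like cells of every mouse and did not pass the test between groups. Its level in them was 990, 970, 1012 and 947 CPM in the controls (537 to 1095 UMIs) and 1156, 813, 2259, 771 and 722 CPM in the tumors (1424 to 5134 UMIs). Of the 5 tumors, 2 lay above and 3 below all controls. This held for the leading 10000 barcodes of each library: with every deposited barcode gated, a choice made after seeing the data, 675 to 1446 control cells were phagocyte-like, Csf1r stood at 409.6 to 707 CPM in controls and 622 to 2259 CPM in tumors, and 4 of 5 tumors lay above all controls. In the edgeR fit the log2 fold change was 0.75 ± 0.33 (adjusted p = 0.0835). It passed without tumor 5 (0.89, adjusted p = 0.0441 in edgeR) and with a marker ratio of 3 in place of 5 in the gate, a setting chosen after seeing the data (0.96, adjusted p = 0.0307 in edgeR), and without tumor 3 it was 0.34. A UMI of Csf1r was seen in 69.8% of tumor and 73.9% of control phagocyte-like cells (median depths 2197 and 2925 UMIs), and in 4.2% and 5.95% of neuron-like cells (1457 and 2914 UMIs). With cells thinned to 1000 UMIs, and those with fewer left out, the phagocyte-like shares were 49.7% and 50.0%. All thinned shares below leave out such cells, so thinned and unthinned shares cover different cells. Tumors lost more of them: the lowest median depth of a tumor was 982 UMIs for phagocyte-like and 860 UMIs for neuron-like cells. In controls these were 1905 and 1968 UMIs.

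Csf2ra, the GM-CSF-specific chain, was higher in CPM in phagocyte-like cells of every tumor than in those of every control, though not per phagocyte-marker UMI. It reached 35.0, 32.8, 32.3 and 30.1 CPM in controls (19 to 37 UMIs) and 56.0, 120, 74.7, 187 and 92.4 CPM in tumors (69 to 1245 UMIs). The log2 fold change was 2.28 ± 0.38 (edgeR, adjusted p = 0.00123). The smallest barcodes held 10.5 to 12.2 CPM in controls and 7.19 to 33.3 CPM in tumors. Gated over every deposited barcode, a choice made after seeing the data, pooled phagocyte-like cells held 17.95 CPM in controls and 125.9 CPM in tumors. The control level in phagocyte-like cells was below that in control neuron-like cells, so at this depth control phagocytes did not stand out for Csf2ra: after thinning, 2.86% of them and 4.06% of control neuron-like cells had a UMI (9.03% and 13.1% unthinned). In tumors the thinned shares were 10.1% and 3.15% (25.0% and 5.56% unthinned).

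The beta chains were also called higher in these cells relative to all UMIs, though not per phagocyte-marker UMI. Csf2rb reached 25.8, 17.7, 11.6 and 22.8 CPM in control and 45.5, 86.4, 39.5, 31.0 and 38.5 CPM in tumor phagocyte-like cells, a log2 fold change of 1.88 ± 0.38 (edgeR, adjusted p = 0.0031). Tumor 2 was far above the other tumors. Csf2rb2 reached 9.21, 8.86, 7.76 and 4.15 CPM in controls (4 to 10 UMIs) and 11.4, 20.8, 12.4, 11.3 and 21.9 CPM in tumors (14 to 106 UMIs), a log2 fold change of 1.62 ± 0.36 (edgeR, adjusted p = 0.00507). In limma voom Csf2rb2 did not pass (1.58, adjusted p = 0.0598). For both genes, as for Csf2ra, all 5 tumors lay above all 4 controls, 3 of the 7 members tested, where 9.26% of the 10699 genes tested did so. The smallest barcodes held at most 6.75 CPM of Csf2rb and 1.66 CPM of Csf2rb2 in any mouse, so both stood above the smallest barcodes in every mouse.

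Csf3r, the G-CSF receptor, was present in control phagocyte-like cells and overlapped between groups in CPM over the leading barcodes. It reached 38.7, 55.8, 59.5 and 55.0 CPM in controls and 111, 44.4, 137, 87.7 and 58.8 CPM in tumors, with 3 of 5 tumors above all controls. With every deposited barcode gated the groups did not overlap, at 21.65 to 26.8 CPM in controls and 42.75 to 137 CPM in tumors. As for Csf1r, the control values were then below those of the leading barcodes. This gating was not fitted, and the share of all genes without overlap under it was not computed. In the leading barcodes the log2 fold change was 1.25 ± 0.32 (edgeR, adjusted p = 0.00935). The call was lost when libraries were scaled by total UMIs (0.73, adjusted p = 0.0801 in edgeR), and per phagocyte-marker UMI Csf3r was lower in tumors.

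In the edgeR fit over phagocyte-like cells, 5 of the 7 members tested were called higher and 1 lower. Of all 10699 genes tested, 47.1% were called and 24.8% were called higher. The median of the 7 was 1.62, beside 0.0583 over all genes. All 10 phagocyte markers were also called higher there (median log2 fold change 2.35), 4 of the 10 microglia markers were (median 0.1), and 8 of the 10 neuron markers were called lower (median -2.19). The value of every member except Csf1 was below the phagocyte-marker median, which comes from the genes that gated these cells. Scaled by total UMIs, the all-gene median moved to -0.48 in phagocyte-like cells, and the calls went from 2653 higher and 2390 lower to 1258 and 4469. With that scaling edgeR called Csf1, Csf2ra, Csf2rb and Csf2rb2 higher and Il34 lower.

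**Figure D3:**
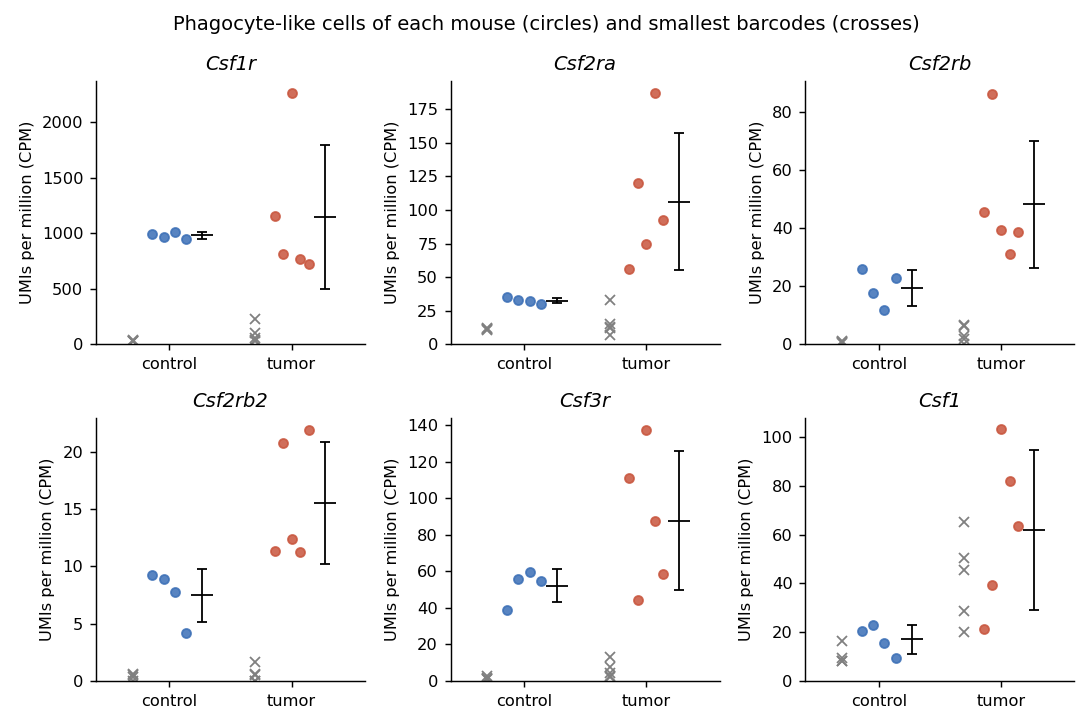
CPM in phagocyte-like cells (vertical axes, from 0), 1 circle per mouse, with the mean and SD beside them in black; gray crosses are the 3000 smallest barcodes of the same libraries. The tumors lie above all controls for Csf2ra, Csf2rb and Csf2rb2, at 56.0 to 187 CPM against 30.1 to 35.0 CPM for Csf2ra, and straddle them for Csf1r.

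The direction depended on what the members were measured against. The 10 phagocyte markers also gated these cells, at 5 times or more their level in the smallest barcodes. That level was 372 to 444 CPM in controls and 965.5 to 6063 CPM in tumors, so tumor cells needed more marker RNA to enter. The share of all genes that were lower on this scale was not computed. In phagocyte-like cells, per 1000 UMIs of the 10 phagocyte markers, Csf1r stood at 99.6 ± 3.87 in controls (SD, n = 4) and 30.4 ± 13.7 in tumors (n = 5), lower in every tumor (two-sided exact permutation p = 0.00794). Csf3r fell from 5.29 to 2.38 on that scale (exact permutation p = 0.0159). Csf2ra stood at 3.31 ± 0.298 and 2.82 ± 1.10 (exact permutation p = 0.389), and the log2 ratios of Csf1 (-0.14), Csf2rb (-0.56) and Csf2rb2 (-0.82) were also below 0. In microglia-like cells on the same scale, Csf1r (log2 ratio -1.72), Csf3r (-1.13), Csf2rb2 (-0.61) and Csf2rb (-0.50) were below 0, whereas Csf2ra stood at 2.31 in controls and 2.69 in tumors (exact permutation p = 0.429) and Csf1 at 1.61 and 1.73 (exact permutation p = 0.786).

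Per 1000 UMIs of the microglia markers in phagocyte-like cells, Csf1r was close in both groups, at 147 ± 2.53 and 143 ± 23.6 (exact permutation p = 0.627). Csf1 stood at 2.56 in controls and 8.27 in tumors (exact permutation p = 0.0238), and Csf2ra at 4.89 and 16.4 (exact permutation p = 0.0714). In microglia-like cells on this scale Csf2ra stood at 3.03 and 13.65 (exact permutation p = 0.0238), Csf2rb at 2.61 and 6.29 (exact permutation p = 0.0397) and Csf1 at 2.11 and 8.57 (exact permutation p = 0.0238). In phagocyte-like cells, per 100 UMIs of Csf1r, Csf2ra stood at 3.32 in controls (3.18 to 3.54) and at 12 in tumors (3.31 to 24.3, exact permutation p = 0.0714). Csf1 stood at 1.74 and 6.14 on that scale (exact permutation p = 0.0397). The p-values of these 34 ratios were not adjusted.

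**Figure D4:**
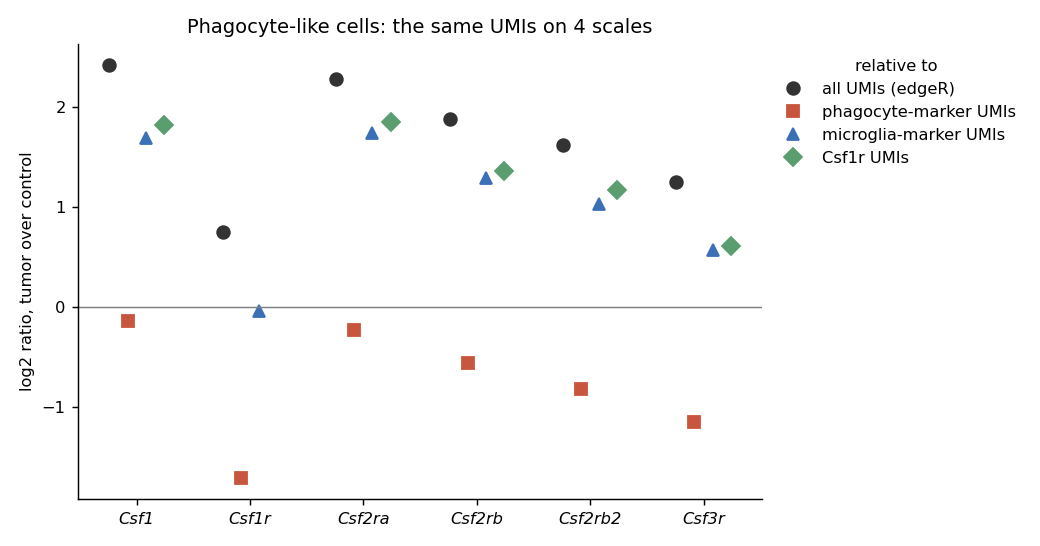
Log2 ratio of tumor over control phagocyte-like cells (vertical axis) for 6 members, relative to all UMIs (black, edgeR), to UMIs of the phagocyte markers (red), of the microglia markers (blue) or of Csf1r (green). All red squares lie below 0, from -0.14 for Csf1 to -1.71 for Csf1r, whereas Csf1r is at -0.04 per microglia-marker UMI.

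Phagocyte-like cells with at least 4 microglia markers and fewer than 2 macrophage or monocyte markers, called microglia-like (702 control and 3018 tumor cells), were also tested alone. Csf2ra reached 29.8, 31.1, 25.4 and 26.4 CPM in control and 78.2, 122, 82.5, 184 and 113 CPM in tumor microglia-like cells (log2 fold change 2.60 ± 0.33, edgeR adjusted p = 0.000135). Csf1 (2.56 ± 0.43), Csf2rb (1.78 ± 0.34) and Csf3r (1.11 ± 0.31) were also called higher by edgeR. Csf1r was not (0.58 ± 0.29, adjusted p = 0.122 in edgeR). That made 4 of 5 members called higher, where 48.1% of the 9044 genes tested were called and 25.0% were called higher. Scaled by total UMIs, the all-gene median there moved to -0.47, the calls went from 2257 higher and 2091 lower to 1044 and 3773, and the call of Csf3r was lost (0.59, adjusted p = 0.142 in edgeR).

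Within tumors, Csf1r and Csf3r were lower in phagocyte-like cells with at least 2 macrophage or monocyte markers (966 cells) than in microglia-like cells, in 4 of 4 tumors with at least 20 such cells. Csf1r averaged 1093 ± 576 CPM in the former and 1499 ± 718 CPM in the latter (SD, n = 4), and Csf3r 69.2 ± 28.5 and 126.1 ± 50.8 CPM. Neither could pass, since 4 mice allow no exact sign-flip permutation p below 0.125. Csf2ra (122 and 117 CPM), Csf2rb (53.2 and 61.1 CPM) and Csf2rb2 (20.7 and 15.6 CPM) differed in mixed directions.

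Outside the phagocytes, Csf3r was prominent in the neutrophil-like cells of tumor 2. Neutrophil-like cells numbered 62 in tumors, 49 of them in tumor 2, and 3 in controls, so no test was made. In tumor 2 they held Csf3r at 477 CPM (48 UMIs) against 44.4 CPM in phagocyte-like cells of that tumor. After thinning, 37.7% of the tumor neutrophil-like cells (exact 95% interval 25.6 to 51.0%, over pooled cells and not over tumors) had a UMI of Csf3r, against 0.149% of tumor neuron-like cells (56.5% and 0.262% unthinned, at median depths of 1679.5 and 1457 UMIs). The same 49 cells held Csf2rb at 129 CPM, Csf2ra at 109 CPM and Csf1r at 69.6 CPM. The smallest barcodes of tumor 2 held 6.75, 12.5 and 54.0 CPM. All tumor neutrophil-like cells together held only 19, 15 and 7 UMIs of these genes. With Leiden clusters in place of the gate, neutrophil clusters exceeded phagocyte clusters for Csf3r in tumors 2, 3 and 5 (390, 526 and 363 CPM). They lay below them in tumors 1 (94.4 against 116 CPM, 7 cells) and 4 (41.8 against 80.8 CPM, 14 cells).

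Csf1, the M-CSF gene, was counted in many classes. Oligodendrocyte-like cells had 86.8, 96.3, 46.6 and 36.1 CPM in controls (5 to 11 UMIs) and 76.2, 107, 104, 83.0 and 83.7 CPM in tumors, above the smallest barcodes in 9 of 9 mice. Neural progenitor or tumor cells had 39.9, 80.0, 80.8, 63.2 and 67.9 CPM, above the smallest barcodes of the same tumor in 4 of 5. Those barcodes themselves held Csf1 at 8.20 to 16.5 CPM in controls and 20.0, 50.4, 28.5, 65.1 and 45.4 CPM in tumors, so these barcodes also held more Csf1 in every tumor than in any control. The share of all genes that did so in these barcodes was not computed. Astrocyte-like cells had 10.7 to 35.0 CPM in controls (2 to 8 UMIs) and 42.7 to 137 CPM in tumors (10 to 26 UMIs), with all 5 tumors above all controls, as were 11.7% of the 3482 genes tested in these cells. Csf1 itself had too few UMIs there to be tested.

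Csf1 in phagocyte-like cells stood at 20.3, 23.0, 15.5 and 9.34 CPM in controls (9 to 26 UMIs) and 21.1, 39.5, 103, 82.2 and 63.6 CPM in tumors (26 to 547 UMIs). The log2 fold change was 2.42 ± 0.48 (edgeR, adjusted p = 0.00282). Tumor 1 lay within the controls, and the level exceeded that of the smallest barcodes in 3 of 4 controls and 4 of 5 tumors. In microglia-like cells all tumors lay above all controls, at 29.0 to 122 CPM against 12.4 to 24.8 CPM, as did 9.35% of the 9044 genes tested there. Macrophage-marker cells had 14.7 CPM in tumor 2 and 19.1 CPM in tumor 4, below the microglia-like cells there (64.0 and 122 CPM), and 44.0 CPM in tumor 1 (22 cells) and 260 CPM in tumor 3 (34 cells), above them (29.0 and 97.1 CPM). The 4 tumors thus had no common direction.

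In endothelial-like cells of samples with at least 20 cells, Csf1 did not pass (0.85 ± 0.41, adjusted p = 0.14 in edgeR), and 27.2% of 7621 genes were called. In neuron-like cells, Csf1 went from 9.13 to 11.0 CPM in controls to 13.03 to 55.7 CPM in 4 tumors (1.68 ± 0.44, edgeR adjusted p = 0.0229), 1 of 4 members called where 23.1% of 15905 genes were. Leaving out any of the 4 controls raised the adjusted p of Csf1 to 0.0678 to 0.0808, leaving out tumor 2 to 0.0636 and leaving out tumor 5 to 0.0556. In the same fit 7 of 10 phagocyte markers were called higher (median log2 fold change 1.69), and in 3 of 4 tumors the neuron-like cells held less Csf1 than the smallest barcodes. In astrocyte-like cells no member had enough counts, and 34.6% of the 3482 genes tested were called.

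Il34 was concentrated in mural-like cells, the pericytes and smooth muscle around vessels. They had 179, 321, 179 and 216 CPM in tumors 2 to 5 (30 to 77 UMIs in 63 to 91 cells) and 9 UMIs in 18 cells of tumor 1. The smallest barcodes of those 4 tumors held 4.07 to 15.1 CPM, and endothelial-like cells had 0.975 to 29.3 CPM. Mural-like cells were thus above endothelial-like cells in 4 of 4 tumors (exact sign-flip permutation p = 0.125, the smallest that 4 mice allow). After thinning, 19.3% of them (exact 95% interval 14.9 to 24.2%, over pooled cells and not over tumors) had a UMI of Il34, against 1.43% of tumor neuron-like cells (38.1% and 2.55% unthinned, at median depths of 2296 and 1457 UMIs). Controls gave 8 mural-like cells, too few for a level.

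**Figure D5:**
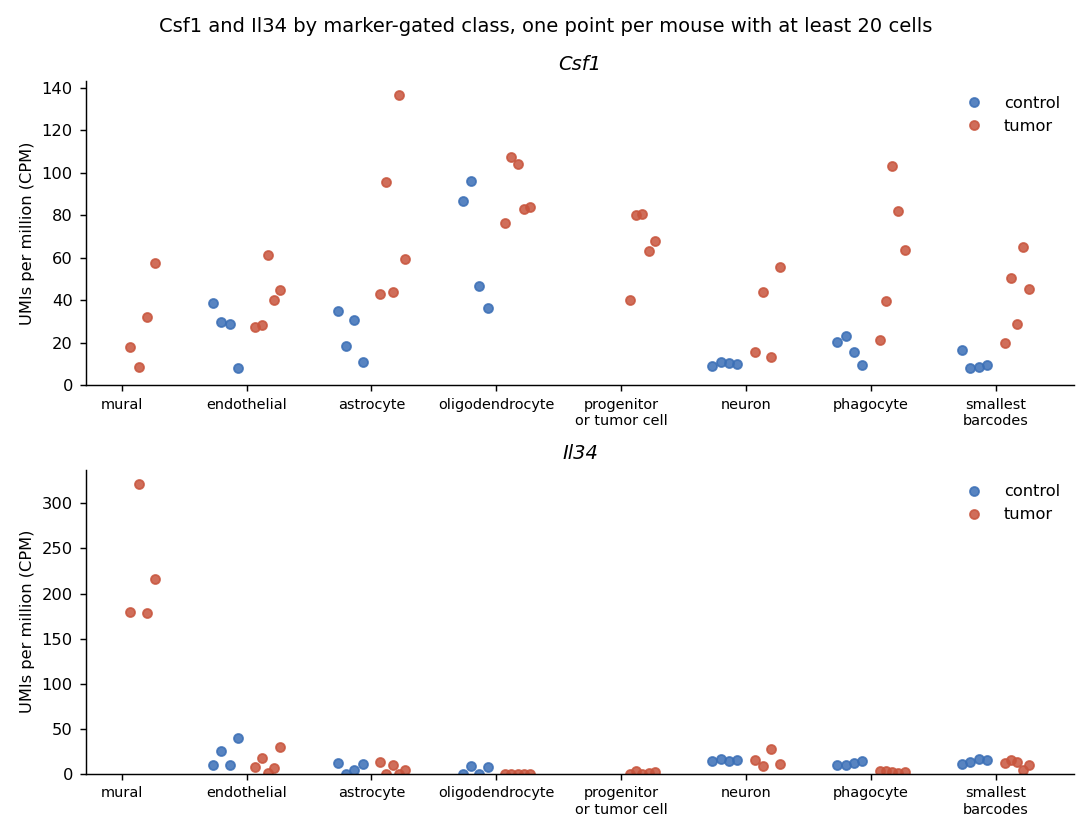
CPM of Csf1 (upper panel) and Il34 (lower panel) by class, 1 point per mouse with at least 20 cells of the class, and the 3000 smallest barcodes at the right. Il34 lies at 179 to 321 CPM in mural-like cells of 4 tumors and at 0.975 to 40.0 CPM in endothelial-like cells; Csf1 in oligodendrocyte-like cells is above the smallest barcodes in every mouse.

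In neuron-like and phagocyte-like cells Il34 did not stand above the smallest barcodes throughout. Fibroblast-like cells reached 59.0 CPM in the 1 tumor with at least 20 of them. Control neuron-like cells had 13.7 to 15.9 CPM, against 10.5 to 16.9 CPM in the smallest control barcodes, and did not differ detectably from tumor neuron-like cells (-0.04 ± 0.26, edgeR adjusted p = 0.938). Il34 was called lower in tumor phagocyte-like cells (-1.81 ± 0.52, edgeR adjusted p = 0.0158), from 9.21 to 14.5 CPM to 0.451 to 3.53 CPM. These control values were at or below those of the smallest barcodes in 4 of 4 mice, and the call was lost without control 4 (adjusted p = 0.0589 in edgeR) and with the replicate number as a block (adjusted p = 0.0644 in edgeR). Neuron markers fell with it in the same cells.

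Csf2, the GM-CSF gene, was almost not captured. Over all barcodes it had 1, 0, 0 and 1 UMIs in controls and 0, 1, 2, 5 and 3 in tumors, 2 of 577226253 and 11 of 178350463 UMIs. A count of 0 allowed up to 0.0183 and 0.0223 CPM in controls 2 and 3 and 0.145 CPM in tumor 1 (3 counts of the library, counting error only). The difference was not detectable (exact permutation p = 0.0873, 0.177 after adjustment). Of the 11 tumor UMIs, 3 were in barcodes gated as T or NK cells, and all 5 barcodes of tumor 4 had at least 2 T or NK markers. Among these 5, the barcode with 6 T or NK markers also had 8 phagocyte markers, and the others had 1 to 3. In contrast, 5 of the 6 Csf2 barcodes of tumors 2, 3 and 5, among them all 3 of tumor 5, had 0 T or NK markers, and 1 of tumor 5 had 7 astrocyte markers. Neither control barcode had a T or NK marker.

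Csf3, the G-CSF gene, had 0, 0, 2 and 0 UMIs in controls and 1, 21, 0, 2 and 3 in tumors. Tumor 2 held 21 of the 27 tumor UMIs. One barcode there held 4 of them and was gated as endothelial, with 7 endothelial and 8 phagocyte markers, the latter under the limit against free RNA. The rest were spread singly or in pairs over phagocyte-like, neuron-like, endothelial-like, progenitor and ungated barcodes. The groups did not differ detectably (exact permutation p = 0.246, 0.388 after adjustment). The difference of the means was 0.153 CPM, and 0.0343 CPM without tumor 2.

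Classes were ordered by their mean level over mice of both groups with at least 20 cells of the class, so the order also reflects how many mice of each group a class had, and classes with fewer than 3 such mice were left out, among them neutrophil-like and ependymal-like cells (1 mouse each). Among the other classes, phagocyte-like cells came first for Csf1r, Csf2ra, Csf2rb, Csf2rb2 and Csf3r. Classes left out could be higher: the neutrophil-like cells of tumor 2 exceeded its phagocyte-like cells for Csf2rb and Csf3r (values above), and 11 dendritic-like cells of tumor 4 held Csf2ra at 259 CPM (18 UMIs), against 187 CPM in its phagocyte-like cells. They exceeded the next class in 8 of 8 mice for Csf1r (1071 CPM and 26.6 CPM in neuron-like cells, exact sign-flip permutation p = 0.00781). For Csf2rb they exceeded endothelial-like cells in 9 of 9 mice (35.4 and 1.98 CPM, p = 0.00391 in the same exact test). For Csf2ra only 4 of 8 mice kept the order of phagocyte-like and neuron-like cells (73.4 and 41.3 CPM), and in controls alone phagocyte-like cells (32.5 CPM) lay below oligodendrocyte precursor-like (50.8 CPM), neuron-like (47.5 CPM) and neuroblast-like cells (44.0 CPM). For Csf1 the leading classes were oligodendrocyte-like (80.0 CPM), neural progenitor or tumor cells (66.4 CPM), astrocyte-like (52.6 CPM) and phagocyte-like cells (42.0 CPM). The progenitor class was met in tumors only, and within tumors astrocyte-like cells (75.7 CPM) stood above it, with phagocyte-like cells at 61.9 CPM. The classes left out had 104 CPM (ependymal-like, 25 UMIs in 33 cells of tumor 2) and 69.6 CPM (neutrophil-like, 7 UMIs). The first pair kept its order in 5 of 5 mice, the next in 2 of 5 and the last in 6 of 9. Over the 68 neighboring pairs tested, no adjusted p was below 0.177, so no order passed the correction. The smallest p that the sign-flip test allows is 0.00391 with 9 mice, 0.0625 with 5 and 0.125 with 4, so pairs with few mice could not pass. The leads of phagocyte-like cells for Csf1r and Csf2rb were at the smallest p for their number of mice. Failing the correction therefore says little about these orders.

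The genes most like each member were found by Pearson's r of log2(CPM + 10) over 15 classes, among 12490 genes, as a description. Csf1r was most like Cx3cr1 (r = 0.967), Blnk (0.964) and C1qc (0.957), and Il34 most like Susd2 (0.972), Postn (0.956) and Rerg (0.954). Csf2rb was most like Gm34589, Nlrp3 and 5430427O19Rik (0.997 to 0.998), and Csf3r most like Gm34589, Il1b and Csf2rb2 (0.997 to 0.998). Csf2ra (Kdm7a, 0.858) and Csf1 (Erbin, 0.855) had no such close match. The classes come from the same libraries and few have much of these genes, so the 15 points are not independent, and Cx3cr1 and C1qc are themselves markers by which cells were gated.

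Of 29 other genes of these pathways, 20 could be tested in phagocyte-like cells, where 11 were called higher and 1 lower (median log2 fold change 0.909, beside 0.0583 over all genes), where 24.8% of all genes were called higher and 47.1% in either direction. All 5 lineage factors were called higher, among them Cebpb (3.88 ± 0.50), Cebpa (2.56 ± 0.44), Spi1 (1.79 ± 0.22), which encodes the transcription factor PU.1, and Irf8 (1.22 ± 0.22). Of 4 feedback and target genes tested, 3 were, among them Socs3 (4.13 ± 0.58), a brake on cytokine signaling that Stat3 induces, and Bcl2a1b (3.11 ± 0.28). Of 8 signaling genes tested, 3 were, among them the phosphatase genes Ptpn6 (1.58 ± 0.29) and Inpp5d (0.96 ± 0.18). The 1 gene called lower was Kitl, the stem cell factor (-1.02 ± 0.31, edgeR adjusted p = 0.0203), named after its value was seen. In the same phagocyte-like fit all 10 phagocyte markers were called higher (median log2 fold change 2.35) and 8 of 10 neuron markers lower (median -2.19). Spi1, Irf8, Ptpn6 and Inpp5d rose less than that phagocyte-marker median, and Cebpb, Cebpa, Socs3 and Bcl2a1b more. The phagocyte markers also gated these cells, and tumor cells needed more marker RNA to enter, so their median is no neutral measure. The part of the marker shifts in the pathway values was not tested. Socs3 was also called higher in endothelial-like (4.72 ± 0.67, edgeR adjusted p = 0.00114) and neuron-like cells (5.48 ± 1.09, edgeR adjusted p = 0.00762), and Stat3 in endothelial-like (1.20 ± 0.24), astrocyte-like (1.08 ± 0.37) and neuron-like cells (1.31 ± 0.33). Cebpb was called higher in these classes too, by 4.07 ± 1.06, 3.54 ± 0.72 and 3.86 ± 0.97. Kit (2.54 ± 0.67) was called higher and Kitl (-0.94 ± 0.24) lower in endothelial-like cells. Sdc1 (5.25 ± 0.78), Stat5a (2.32 ± 0.50) and Il3ra (2.00 ± 0.36) were among those called higher in neuron-like cells. Of the pathway genes tested, 4 of 13, 2 of 6 and 12 of 27 were called higher in these classes, and 1, 0 and 0 lower. Of all genes, 27.2%, 34.6% and 23.1% were called in either direction. In the neuron-like fit 7 of 10 phagocyte markers and the myeloid genes Cebpa and Bcl2a1b were also called higher. The phagocyte markers took 225 to 280 CPM in control and 262 to 915.5 CPM in tumor endothelial-like cells. In astrocyte-like cells they took 140 to 237 and 235 to 991 CPM. The part of phagocyte RNA in the values of these 3 classes was not tested. Over all kept cells 19 of 27 were called higher and 1 lower, beside 29.3% of all genes higher and 56.5% in either direction.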

How the data were processed

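The authors deposited 1 matrix of UMI counts per sample from 10x Genomics 5' libraries, aligned to mm10 with Cell Ranger (version 7 in the labels, 6.1.2 in the matrix headers). The counts were used as deposited. The lists of control 4 are shorter than its matrix (32287 of 32289 features, 80865 of 80887 barcodes); its 32285 mouse genes are listed in the order of the other libraries and were read in that order, and its barcodes were used by column. The members and all gene lists were chosen with earlier results of these data known. Barcodes were ranked by UMIs in each library and, of the leading 10000, those with 200 to 6000 genes and at most 20% mitochondrial UMIs entered the analysis. Doublets were not removed in the values given, and their removal was an alternative. A class needed at least 4 of its markers, at least 5 times the UMIs expected from the 3000 smallest barcodes and a lead of 2 markers over other lists past that limit; neuron and progenitor classes were assigned last, without the UMI limit. Counts were summed per mouse and class and tested with edgeR 4.0.16 (quasi-likelihood, R 4.3.3) where a mouse had at least 50 cells of the class, or 20 for astrocyte-like and endothelial-like cells, a limit set after the cell numbers were seen. The SE beside an edgeR log2 fold change is its absolute value divided by the square root of the F statistic of that test. Single values were tested by exact permutation over mice. Levels are CPM (UMIs per 1000000), and shares have exact Clopper-Pearson 95% intervals. Intervals and floors cover counting error only. The named genes are the 9 members, up to 8 called genes of a pathway list and the 3 genes most like each member. Alternatives were limma voom 3.58.1, DESeq2 1.42.0, other scalings, cell limits and gates, Leiden clusters (Scanpy 1.11.5), a replicate block and leaving out each mouse. Simulated counts were used to test the scripts. The 28 pairs of the libraries other than control 4 shared 19 to 45 barcodes, and replicates differed beyond sampling noise. Each sample is taken as a separate animal, which the labels do not state, so the spread may be partly technical.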

Additional observations from a re-analysis of the deposited data

Results flagged for a closer look

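In 42 groups of 4 or 5 mice, 3 values, of tumors 2 and 3, lay far from the others of their group by Dixon's test, which chance alone gives in about 1 group in 20. Csf1r over whole libraries was 442 CPM in tumor 3, and the nearest tumor had 151 CPM. Csf1r in phagocyte-like cells was 2259 CPM in tumor 3, and the nearest tumor had 1156 CPM. Csf2rb in phagocyte-like cells was 86.4 CPM in tumor 2, and the nearest tumor had 45.5 CPM.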

How the results depend on the processing

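Under the alternatives, 575 values of single genes kept their direction and their side of the threshold, while 21 changed direction, 26 lost and 10 gained a call. The 575 include differences between macrophage-marker and microglia-like cells, whose side of the threshold was not compared. Values that summarize a comparison were mostly counts of members called, and were compared by size alone. Of these summary values, 125 stayed within a factor of 1.5, while 9 rose and 7 fell by more. The other 7 were shares of cells with a UMI after thinning. These leave out cells below the thinned depth, so they cover different cells than the unthinned shares. Measured per UMI of the phagocyte markers, a scale chosen after seeing the data, the log2 ratio in phagocyte-like cells turned to -0.14 for Csf1, -1.71 for Csf1r, -0.23 for Csf2ra, -0.56 for Csf2rb, -0.82 for Csf2rb2 and -1.15 for Csf3r, and in microglia-like cells to -1.72 for Csf1r, -0.50 for Csf2rb and -1.13 for Csf3r. Per UMI of the microglia markers Csf1r turned to -0.0424 and -0.0678. In neuron-like cells Il34, near 0 throughout, turned to 0.0238 with total UMIs in place of TMM (also chosen after seeing the data), 0.00525 with doublets removed and 0.0578 with a stricter gate, and ranged from -0.35 to 0.0832 as each mouse was left out. Csf1r there turned to -0.26 with Leiden clusters and ranged from -0.19 (without tumor 3) to 0.82 as each mouse was left out. The cause was not tested. In kept cells only, the Csf2ra difference turned to -15.8 CPM and 5 members passed over whole libraries, as did 9158 of 27030 genes, whereas over all barcodes no member and 0 of 27974 genes passed the exact permutation test. Members called in astrocyte-like cells were 1 without a filter on low counts (1969 of 17127 genes called), 1 at a marker ratio of 3 (3400 of 8976), 3 with Leiden clusters (4118 of 10541) and 0 to 1 as each mouse was left out. In neuron-like cells they were 2 with Leiden clusters (5317 of 15789 genes) and 0 to 2 as each mouse was left out (1591 to 4766 genes).

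The replicate block rested on a shared number only: deviations of same-numbered mice correlated at 0.113, 0.000466, -0.00583 and 0.0352. With the replicate block 0 members were called in neuron-like cells, Il34 there was 0.0514, and calls over all genes went from 3667 to 640 there and from 10346 to 8124 over all kept cells. Thinned to 1000 UMIs, the shares of tumor phagocyte-like cells with a UMI were 4.82% for Csf1, 49.7% for Csf1r, 0.268% for Il34, 10.1% for Csf2ra, 4.02% for Csf2rb, 1.40% for Csf2rb2 and 6.52% for Csf3r. Low counts limit the precision for Csf2 (at most 5 UMIs a library), Csf3 (at most 21) and Csf2rb2 in control phagocyte-like cells (4 to 10).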
